A study of Medicago truncatula with 14 samples.

Results

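Outside a stretch near rRNA genes, 461 reproducible NIN regions overlapped a reproducible LSH1 region. There were 17194 reproducible NIN regions and 16700 reproducible LSH1 regions on the 8 chromosomes of Medicago truncatula. A further 10 shared regions lay in that stretch of chromosome 5 and are shown apart, which makes 471 in all. The regions came from chromatin immunoprecipitation followed by sequencing, in which DNA crosslinked to a tagged protein is recovered and its enriched positions are listed as peaks. Peaks of the 3 NIN lists were merged where they overlapped by at least 1 bp, as were those of the 4 LSH1 lists, and a merged region was kept if 2 or more lists of its protein held a peak there. Members were chosen from these peak lists as the NIN regions that overlapped an LSH1 region by at least 1 bp; they are called both-bound regions here. The name stands for overlap of peak lists from separate roots and does not mean that the 2 proteins occupied the DNA together.

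The libraries were made from hairy roots of ecotype jemalong (cultivar Jester), grown for 3 weeks on ammonium nitrate medium without symbiosis. One set of roots expressed GFP-NIN and the other GFP-LSH1, in each case from the ubiquitin promoter of Lotus japonicus (LjUBI), so that expression was driven by a broadly active promoter and not by the proteins' own. Hairy roots are transgenic roots that form after infection with Agrobacterium rhizogenes. Behind each of the 7 lists stood 1 immunoprecipitation and 1 control library that carried its replicate number. The labels name the same construct for the controls, while the protocol gives nuclear GFP from the same promoter as control. No label tells whether replicates were separate cultures, so p-values below refer at most to the spread between lists, which may be technical.

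NIN (NODULE INCEPTION) is a transcription factor of the RWP-RK family that legumes need for rhizobial infection and for starting nodule organogenesis. LSH1 (LIGHT SENSITIVE SHORT HYPOCOTYL) belongs to the ALOG family of plant transcriptional regulators, whose members act in organ boundaries and organ identity; in Medicago it is linked to the identity of the symbiotic nodule. ALOG proteins and RWP-RK proteins carry unrelated DNA-binding domains. The study set out to find where each protein binds, and the shared regions are where its NIN and LSH1 peaks met.

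The lists differed in length. They held 14021, 28825 and 84178 peaks for NIN replicates 1 to 3, and between 18750 and 25127 for the LSH1 replicates. NIN replicate 3 covered 52.7 Mb, against 4.04 Mb and 9.13 Mb in the other NIN lists and 6.77 to 10.3 Mb in the LSH1 lists. The lists give positions and a running number but no height, fold or read count, so the depth behind each is unknown.

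The shared regions were a small part of either set. With the chromosome 5 stretch included, the share was 2.74% among NIN regions (471 regions) and 2.87% among LSH1 regions (480 regions). These shares follow from the rule and are given as a description. Outside the stretch, NIN regions seen in a single list, which the rule left out, overlapped LSH1 regions at a like rate, 2785 of 88155 or 3.16%. The share there was 2.64% for NIN regions in 2 lists and 2.98% for those in all 3, so neither was above the single-list share. Widths and the mix of lists were not matched in this comparison.

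Which lists supported a NIN region did go with the share. Regions in NIN replicates 1 and 2 but not 3 overlapped LSH1 in 61 of 1180 cases (5.17%). Regions in replicates 1 and 3 did so in 132 of 3283 (4.02%), and regions in all 3 lists in 62 of 2081 (2.98%). Regions in replicates 2 and 3 had the lowest share, 206 of 10640 (1.94%). Median widths of these groups, in the order given, were 433.5, 675, 1067 and 797 bp, and the part of width in the share was not tested. Replicate 3 took part in 400 of the 461 both-bound regions. At 69 of the 461 (15.0%) only NIN replicate 3 touched the LSH1 region, at 9 only replicate 2, and at 7 only replicate 1. The overlap at those regions thus rested on a single NIN list.

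On the LSH1 side the share fell with the number of lists. It was 3.44% for regions in 2 lists (279 of 8106), 2.57% in 3 lists (102 of 3973) and 1.91% in all 4 (88 of 4610). Among LSH1 regions in 2 lists, those in replicates 3 and 4 had the highest share, 5.26%, and those in replicates 1 and 2 the lowest, 1.55%. The fall with recurrence thus holds for the number of lists and not for each combination of them. Median width rose with the number of lists, from 443 bp in 2 to 948.5 bp in 4, and its part in the share was not tested.

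**Figure D1:**
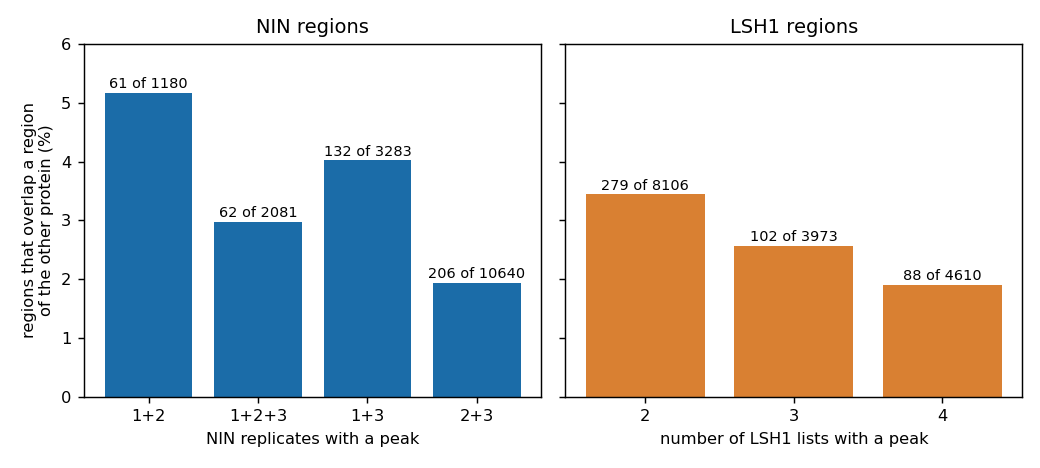
Share of NIN regions (left, by the NIN replicates that hold a peak) and of LSH1 regions (right, by the number of LSH1 lists) that overlap a region of the other protein, without the chromosome 5 stretch; numbers above the bars are counts. The NIN share is highest, 5.17%, for replicates 1 and 2 without 3, and the LSH1 share falls from 3.44% to 1.91%.

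Most both-bound regions rested on the fewest lists the rule allowed. Of the 461, 235 (51.0%) were in 4 lists, 120 in 5, 97 in 6 and 9 in all 7. All 3 NIN lists held 62 of them (13.4%), close to the 12.2% of all NIN regions in all 3 lists. Counted as NIN regions, 90 (19.5%) overlapped an LSH1 region in all 4 LSH1 lists. Counted as LSH1 regions, 18.8% of the 469 on the LSH1 side were in all 4 lists, below the 27.9% of other LSH1 regions. The number of lists entered the rule, so these shares are a description with no test.

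Each list was left out in turn and all regions were rebuilt from the other 6. The rebuilt both-bound sets held 109 to 328 regions and are not the members described above. All 7 lists helped choose those members, so recovery restates their support counts in part and is no independent test of them. Rebuilt both-bound regions had a peak in the list left out less often than other regions of that protein in 6 of 7 lists. For LSH1 replicates 1 to 4 left out, 53.4%, 47.6%, 48.0% and 44.0% of both-bound regions were recovered, against 70.7%, 67.7%, 50.1% and 55.7% of other LSH1 regions. For NIN replicates 1 to 3 the shares were 22.3%, 31.2% and 44.0% of both-bound regions and 16.1%, 38.6% and 58.8% of other NIN regions. NIN replicate 1, the shortest list, was the exception, with a higher share for the both-bound regions.

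Over the 7 lists the recovered share was lower by a mean of 9.60 percentage points at both-bound regions (difference -9.60 ± 9.24, SD, n = 7; two-sided exact sign-flip permutation test, p = 0.0469, where the smallest possible p is 0.0156). Of other regions, 50.9% were recovered over all lists. The exact sign-flip p depended on single lists. When any list other than NIN replicate 1 was dropped, it rose to between 0.0625 and 0.0938 on 6 differences. Without NIN replicate 1 the difference was -12.2 (exact sign-flip p = 0.0312). The 7 region sets share lists, so the differences are not independent, and the test pools lists of 2 proteins. Its values also come from the lists that gave the support counts. No call is made from its p. In the LSH1 lists alone the mean was -12.8 ± 7.94 (n = 4, exact p = 0.13, the smallest possible), and in the NIN lists -5.32 ± 10.6 (n = 3, exact p = 0.50). The difference of 7.50 points between the means of the 2 proteins did not pass (exact permutation test over 35 divisions of the lists, p = 0.343). Median widths of both-bound regions in these sets were 532 to 572 bp for LSH1, against 581 to 601 bp for other LSH1 regions, and their part in the difference was tested only by the width limits given in the closing section.

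**Figure D2:**
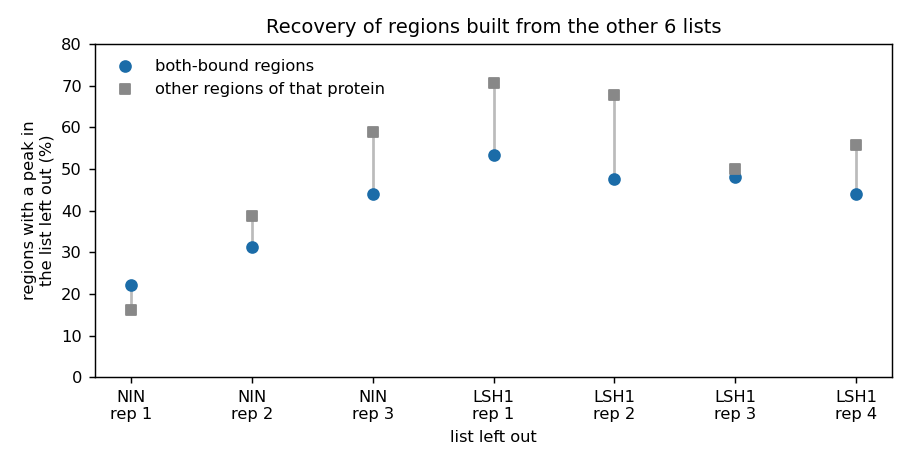
Percent of regions, built from 6 lists, that have a peak in the list left out; circles are both-bound regions and squares the other regions of that protein, joined by a line for each list. The circle lies below the square in 6 of 7 lists, and above it only for NIN replicate 1 (22.3% against 16.1%).

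Position within a list gives a further view. The running number of a peak was read as a rank by a measure that the lists do not name; place is 100 times this number over the list's length, and low values come first. At both-bound regions the median place of the best peak was 35.0%, 35.4% and 29.7% in NIN replicates 1 to 3, and at other NIN regions 47.4%, 44.3% and 31.9%. In LSH1 replicates 1 to 4 it was 38.7%, 42.9%, 39.1% and 42.0% at both-bound regions, and 32.9%, 34.0%, 35.8% and 35.6% at others. Shared regions thus stood earlier among NIN regions and later among LSH1 regions, in each of the 7 lists. Quartiles overlapped widely, and since place comes from the same lists as the rule no test is given.

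**Figure D3:**
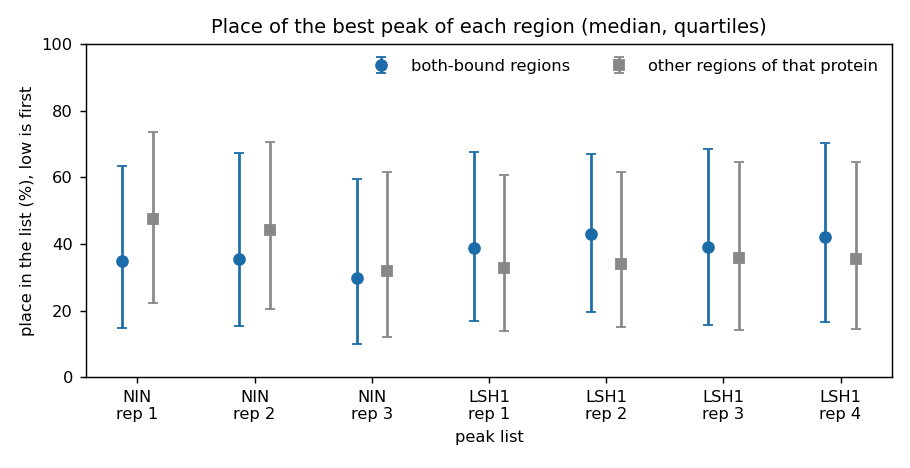
Median place (symbols) and quartiles (bars) of the best peak of each region in each list, in percent of the list, for both-bound regions (circles) and other regions of that protein (squares). Circles lie below squares in the 3 NIN lists and above them in the 4 LSH1 lists, with wide overlap of the quartiles.

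A good place for one protein did not go with a good place for the other. Mean places here and below were taken over the lists that held a peak. Over the 461 regions, the mean place in the NIN lists and that in the LSH1 lists had a Spearman rho of 0.03. The points share their lists and their chance of being called, so this is a description across regions with no test.

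The overlap usually took up most of the smaller region, although partial overlaps were more common than nested ones. The median overlap was 363 bp (lower and upper quartile 270 and 492 bp) and the longest 1399 bp. The overlap took a median of 97.0% of the smaller region, and 398 regions (86.3%) overlapped by at least 50% of it. At 137 regions the LSH1 region lay inside the NIN region, at 59 the NIN region lay inside the LSH1 region, and at 265 they overlapped in part. Midpoints were a median of 194 bp apart and within 100 bp of each other at 145 regions (31.5%).

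Peaks of single lists coincided less than the merged regions. At 315 of 461 regions (68.3%) some base lay under peaks of at least 2 NIN lists and at least 2 LSH1 lists at once, and at 4 regions some base lay under all 7 lists. At the edge of the rule, the 5 smallest overlaps were 1, 3, 3, 11 and 14 bp, and the 5 nearest NIN regions left out lay 2, 13, 15, 27 and 30 bp from an LSH1 region. Gaps of up to 50 bp were found at 8 NIN regions left out, and overlaps of up to 50 bp at 14 members. At 11 members the NIN region overlapped 2 separate LSH1 regions.

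Both-bound regions were spread over all chromosomes. Chromosome 1 held 83, chromosome 4 held 79, and chromosomes 2, 3, 5, 7 and 8 held between 50 and 60 each. Chromosome 6 held 29, or 0.677 per Mb against 0.889 to 1.46 per Mb elsewhere. On chromosome 6, 1.18% of 2468 NIN regions but 4.14% of 677 LSH1 regions were shared, the lowest NIN share and the highest LSH1 share of any chromosome. The numbers of regions of the 2 proteins on each chromosome set these shares jointly.

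Neighbouring shared regions lay a median of 560897 bp apart, and 25 of 453 gaps were under 10000 bp. Such gaps joined regions into 14 pairs, 3 groups of 3 and 1 group of 6. The group of 6 lay on chromosome 7 between 6607394 and 6627237, a span of 19844 bp over the coding genes LOC120577113, LOC120576944 and LOC120576945. This span held 10 NIN and 8 LSH1 regions, and no other group of shared regions came near its number.

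Within this group, 3 regions were early in all NIN lists and later in the LSH1 lists. The widest, at 6621653 to 6623709, was in all 7 lists, 521 bp from LOC120576944. Its places were 0.171%, 0.232% and 0.0202% in NIN replicates 1 to 3, and 9.02%, 23.5%, 43.7% and 9.36% in LSH1 replicates 1 to 4. NIN peaks there were thus among the first of each list, while LSH1 peaks were not. The region at 6614906 to 6615843, which overlapped LOC120576944, stood at 0.542%, 0.25% and 0.118% in the NIN lists and at 52.3%, 9.84% and 91.4% in LSH1 replicates 1, 2 and 4, with no peak in LSH1 replicate 3. The region at 6626482 to 6627237 overlapped LOC120576945 and stood at 0.678%, 4.83% and 1.75% in the NIN lists and at 92.0% and 20.4% in LSH1 replicates 1 and 2. At each of these regions all NIN places were lower than all LSH1 places. The other regions of the group started at 6607394, 6612060 and 6624605, were in 4 or 5 lists, and had mean places of 20.7% to 27.4%.

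Position relative to genes was not named in the rule, but overlap with regions of the other protein was. The full NIN and LSH1 sets differ in gene position. A set that overlaps both may therefore lie between them through the rule alone, and the shares below are a description. Genes came from RefSeq's table of assembly MtrunA17r5.0-ANR, while the lists' sequence names begin with MtrunA17; the sources used here give no build, so gene positions are used for neighbourhood only. Midpoints of 139 both-bound regions (30.2%) lay inside a coding gene, 88 lay outside within 2000 bp of one, and 234 (50.8%) lay further away. Inside genes lay 18.3% of all NIN regions and 36.2% of all LSH1 regions, and over 2000 bp away lay 65.1% and 32.7%. Shared regions thus held a middle position between the 2 proteins by both measures.

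**Figure D4:**
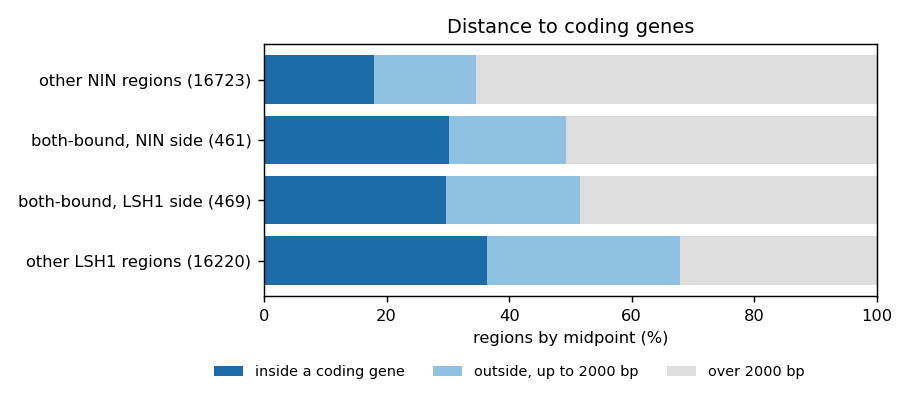
Percent of regions whose midpoint lies inside a coding gene, outside but within 2000 bp of one, or over 2000 bp away, for both-bound regions and for the other regions of each protein, with numbers of regions in parentheses. Both-bound regions lie between the other NIN and the other LSH1 regions, with 50.8% over 2000 bp from coding genes on the NIN side.

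Gene ends were examined list by list, with a window from 2000 bp outside to 500 bp inside either end of a coding gene. In it lay the midpoints of 122 both-bound regions (26.5%), against 22% of all NIN regions and 48.5% of all LSH1 regions. In NIN replicates 1 to 3 the share was 29.0%, 26.1% and 24.8% at both-bound regions and 24.5%, 21.1% and 21.3% at other NIN regions. It was higher at both-bound regions in 3 of 3 lists, by 4.35 ± 0.833 percentage points (SD, n = 3; two-sided exact sign-flip permutation p = 0.25, the smallest that 3 lists allow).

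Measured on the LSH1 regions, the contrast was larger and ran the other way. In LSH1 replicates 1 to 4, 33.2%, 33.0%, 32.5% and 33.9% of both-bound regions lay in the window, against 50.0%, 51.1%, 47.8% and 49.4% of other LSH1 regions. The difference was -16.4 ± 1.31 percentage points (SD, n = 4; two-sided exact sign-flip permutation p = 0.13, the smallest that 4 lists allow), lower in 4 of 4 lists. Lists of a protein share regions, so the small spread between lists is no measure of the error over regions. Neither test could pass a threshold of 0.05. Choice by overlap also draws each share toward that of the other protein, 22% for all NIN and 48.5% for all LSH1 regions. Both signs may thus follow from the rule, and neither is read as a trait of the members. The LSH1 contrast was of the same sign at every level of recurrence, where the same limit applies. In the window lay 28.3% of both-bound and 46.6% of other LSH1 regions in 2 lists, 34.3% and 50.9% in 3 lists, and 39.8% and 51.6% in all 4.

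Among the NIN regions the share inside genes depended on the lists. Of both-bound regions in replicates 2 and 3, 30.1% lay inside a coding gene, against 15.9% of other NIN regions in those lists; in replicates 1 and 3 the shares were 34.8% and 20.9%. In replicates 1 and 2 without 3 they were 32.8% and 33.2%, and in all 3 lists 17.7% and 16.0%. The shares thus lay further apart where replicate 3 and 1 other list held the region than in the other combinations, and these differences were not tested.

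Of 31728 coding genes, 140 (0.441%) had the midpoint of a both-bound region in a gene-end window. NIN regions reached 11.7% of coding genes in this way and LSH1 regions 23.5%, and 462 genes had a region of each protein. Most of those 462 genes thus carried separate NIN and LSH1 regions and not a shared one. More than 1 shared region was found at LOC25484375, LOC25484696 and LOC120576944.

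Of 48 names on a nodulation list, 20 were matched by symbol or synonym, so 28 could not be examined. A single one of the 20 had a both-bound region in its window, beside 0.441% of all coding genes, and nothing is read from a count of 1. LSH1 regions lay in the windows of 7 of the 20 genes, beside 23.5% of all coding genes, and NIN regions in those of 5, beside 11.7%. The one gene with both was MtN13 (LOC25494100), a nodulin related to pathogenesis-related proteins of the PR10 class. Its shared region spanned 58196557 to 58197122 on chromosome 4, with the midpoint inside the gene. The region was in NIN replicates 2 and 3, at places of 68.1% and 26.1%, and in LSH1 replicates 1 to 4, at 19.5%, 34.4%, 39.2% and 83.1%. These places ranged from the first part of a list to near its end, and NIN replicate 1 had no peak.

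The other nodulation genes had their nearest shared region further away. It lay 5881 bp from NFP, a LysM receptor kinase for Nod factors, and 24285 bp from NOOT2, a BTB-ankyrin co-regulator of nodule identity. It lay 31554 bp from RDN1, an enzyme of nodule number control, and 59125 bp from IPD3, the partner of the calcium- and calmodulin-dependent kinase. At NSP1, a GRAS-family regulator of Nod factor signalling, it was 113700 bp away, and at the rest of the matched genes it was further. The genes of NIN and LSH1 themselves, LSH2 and NF-YA1 had no match in the table, and their loci are not analysed here. Of the 10 coding genes on the chromosomes with a symbol other than a locus number, 0 had a shared region in the window, and a share of 0.441% would leave such a small group at 0 too.

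The 9 both-bound regions in all 7 lists are the most recurrent of the set, counted by a peak anywhere in the merged regions. The one with the best mean place lay on chromosome 8 at 30901376 to 30902355, 1492 bp from LOC11423701. It stood at 15.1%, 32.7% and 2.02% in NIN replicates 1 to 3 and at 5.32%, 4.62%, 13.1% and 7.08% in LSH1 replicates 1 to 4. Its places were thus in the first part of every list, although no base lay under more than 5 of them. The region on chromosome 1 at 36152280 to 36153297 overlapped LOC11420810 and was the reverse of the chromosome 7 group. It was among the first LSH1 peaks, at 0.314%, 0.438%, 0.427% and 0.361%, and stood at 10.9%, 13.7% and 59.5% in the NIN lists.

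Such unequal places were common among the 9. The region on chromosome 6 at 657038 to 657808 stood at 8.07%, 4.34%, 5.04% and 12.8% in the LSH1 lists and at 37.4%, 28.0% and 94.5% in the NIN lists. On chromosome 8 at 6330243 to 6331234, LSH1 places were 28.9%, 18%, 11.8% and 5.91% and NIN places 42.2%, 61.6% and 60.1%. At both, every LSH1 place was lower than every NIN place. The remaining regions started on chromosome 2 at 17946781, on chromosome 3 at 54797581, and on chromosome 4 at 53580303 and 63653674, with mean places of 29.0% to 41.6%. At 4 of the 9 some base lay under all 7 lists: 218 bp at 63653674 on chromosome 4, 104 bp at 54797581 on chromosome 3, 39 bp at 36152280 on chromosome 1 and 5 bp at 6621653 on chromosome 7. The region at 17946781 on chromosome 2 had no base under more than 4 lists. There and at 53580303 on chromosome 4, only NIN replicates 2 and 3 touched the LSH1 region. The region at 53580303 stood at 99.9% in NIN replicate 1.

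The best mean places among regions in at least 5 lists belonged to other regions. Lists without a peak did not enter the mean, so absence from a list did not worsen a region's standing. Place is that of the best peak anywhere in a merged region, so that peak need not lie at the overlap. First came a narrow region on chromosome 2 at 36443767 to 36443989, inside LOC25487128. It stood at 0.0382% and 0.0107% in NIN replicates 2 and 3, at 0.0796%, 0.0959%, 0.0960% and 0.0818% in LSH1 replicates 1 to 4, and was not in NIN replicate 1. Its NIN and LSH1 midpoints were 1 bp apart, and it was the one shared region outside the chromosome 5 stretch that lay in the first 0.1% of 6 lists. Second was a region on chromosome 7 at 17188098 to 17189027, 4841 bp from LOC112418401. Its places were 2.11% and 2.38% in NIN replicates 2 and 3 and 0.179%, 0.283%, 0.331% and 0.265% in the LSH1 lists. The regions of the 2 proteins there had nearly the same ends, with midpoints 8 bp apart.

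Next came a region on chromosome 3 at 50890839 to 50891480 in LOC25489953, which lay inside a wider LSH1 region of 2991 bp. It stood at 0.628% and 0.156% in NIN replicates 1 and 3 and at 0.637%, 0.899%, 2.65% and 1.51% in the LSH1 lists. It was followed by a region on chromosome 8 at 22129098 to 22129783. LOC112417366, its nearest coding gene, was 103567 bp distant, more than at any other member. Its places were 0.207%, 0.0659% and 0.0154% in the NIN lists and 8.11%, 4.08% and 1.56% in LSH1 replicates 1 to 3. Only peaks of NIN replicates 2 and 3 touched the LSH1 region there. The next 6 had mean places of 5.98% to 10.5% and had as nearest coding genes LOC112422845, LOC11418778, LOC120576085, LOC25494274, LOC11428528 and LOC112416577. At the region near LOC112416577, 5585 bp wide, only NIN replicate 3 touched the LSH1 region, and midpoints were 3028.5 bp apart. The region at LOC120576085 on chromosome 6, from 29999405 to 30006054, was the widest member, with 6650 bp on the NIN side around an LSH1 region of 529 bp. On chromosome 5 the best-placed region outside the stretch, at 18509412 to 18509909, overlapped LOC11417374 and had a mean place of 19.9%. Products of these genes are not stated in the table used.

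**Figure D5:**
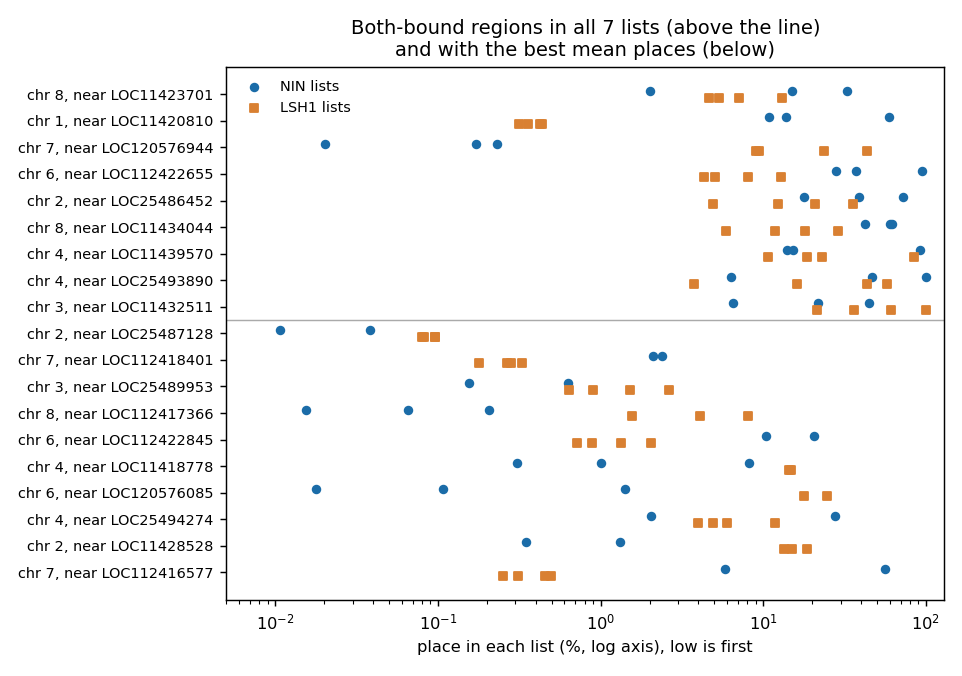
Place of each list's best peak (percent of the list, log axis, low is first) at the 9 both-bound regions in all 7 lists, above the line, and at the 10 with the best mean places among those in at least 5 lists, below it; circles are NIN lists and squares LSH1 lists. Some regions are early for NIN alone, such as that near LOC120576944, and some for LSH1 alone, such as that near LOC11420810.

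Length of overlap picked out partly other regions. The 10 longest overlaps ran from 913 to 1399 bp. They included the region in all 7 lists near LOC120576944, that near LOC25493890 with 1375 bp, and that near LOC112418401 with 930 bp. The nearest coding genes of the other 7 were LOC112420919, LOC11440079, LOC25492416, LOC11405522, LOC11436404, LOC11420549 and LOC11405950, in 4 to 6 lists each. The shared region 552 bp from LOC11436404, on chromosome 7 at 33701213 to 33702140, stood at 0.150% in NIN replicate 1 but at 94.2% in NIN replicate 3, and at 2.72% to 5.89% in the LSH1 lists. The NIN lists thus disagreed about its order while the LSH1 lists did not.

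The 10 shared regions near rRNA genes on chromosome 5 lay between 23802279 and 23927255 and differed from the rest in recurrence, place and fit. Of these, 9 were in all 7 lists, as many as among the 461 others. Their mean places ran from 0.00781% to 1.64%. The region at 23810167 to 23810774 was peak number 2, 1 and 1 of NIN replicates 1 to 3 and number 3, 3, 1 and 1 of LSH1 replicates 1 to 4. The region at 23802279 to 23802767 was number 1, 2 and 3 in the NIN lists and number 8, 6, 5 and 3 in the LSH1 lists. These 2 regions were among the first peaks of every list. The others were later, and the region at 23803158 to 23803426 was in 5 lists, as peak number 1317 of LSH1 replicate 2. Midpoints of the 2 proteins' regions were a median of 9.5 bp apart there, against 194 bp elsewhere. Outside the stretch, 0 of 461 both-bound regions lay within 5000 bp of an annotated rRNA gene, beside 0.0598% of other NIN and 0.0185% of other LSH1 regions. Near tRNA genes lay 5 (1.08%), beside 0.831% and 2.63%, and near snRNA genes also 5, beside 0.293% and 0.746%. Near snoRNA genes lay 3 (0.651%), beside 2.64% and 0.598%. These are small counts and were not tested. With the stretch included, the recovered share in the rebuilt both-bound sets was lower by 7.14 percentage points (difference -7.14, exact sign-flip p = 0.0781).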

How the data were processed

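Peak coordinates and a running number per peak were deposited by the authors as 7 lists; these values carry other units than reads, and no score was given. Per the labels, each list belongs to 1 immunoprecipitation and its control; the tools were MACS2, Bowtie2, ChIPseeker and Picard, per the submitters' processing notes, and list names give narrow peaks at a q cutoff of 0.05. For tool versions and the genome build, nothing is given in the sources used here. Depth per library is unknown, so list length may follow depth.

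Peaks were merged and intersected with pandas 2.3.3 in Python 3.11.15, on chromosomes 1 to 8, and a recount with bedtools 2.31.1 gave the same 471 regions. Coordinates are counted from 1. Of LSH1 regions, 28.0% had their midpoint within 500 bp of a gene end, and 16.8 to 18.2% after genes were moved by 1000, 5000 or 20000 bp, so lists and gene table were used together. Differences were tested per list with two-sided exact sign-flip permutation tests, on code checked with planted regions. Regions were named if in all 7 lists, among the 10 best mean places in at least 5 lists, best on a chromosome, or among the 10 widest overlaps; genes were named if on the nodulation list or with a symbol. Members and lists were chosen with earlier results of these data known. No genome sequence was used, so motifs, and lists by product name, were not run.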

Additional observations from a re-analysis of the deposited data

How the results depend on the processing

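The number of both-bound regions, 461, depended on the lists used. It ran from 109 to 322 without 1 replicate: 265, 192 and 109 without NIN replicates 1, 2 and 3, and 307 to 322 without an LSH1 replicate. It was 9 with peaks in all lists of the protein, 19 with the first 5000 peaks of each list and 145 with midpoints within 100 bp. It was 398 with an overlap of 50% of the smaller region, 438 without regions over 2000 bp, and 315 where a base had to lie under peaks of 2 lists of each protein, a setting chosen after seeing the data. Of 27 named regions, 9 remained without NIN replicate 3.

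The lower recovery in the rebuilt both-bound sets kept its direction under every alternative run, but mostly missed the threshold. The difference was -12.2 to -7.85 without 1 replicate, -9.43 with 50% overlap, -9.35 without regions over 2000 bp, -8.80 with regions of 300 to 1000 bp only, and -7.14 with the chromosome 5 stretch; exact p lay between 0.0625 and 0.0781 in the last 4. The cause was not tested. The gene-end differences kept their sign in all alternatives. Under the main rule for lists they ran from 2.35 to 8.29 points against other NIN regions. Against other LSH1 regions they ran from -20 to -13.5 points. A far wider window, which took in entire gene bodies and their flanks, gave 14.9 and -13.1 points and is no gene-end measure. With peaks required in all lists, the values were 13.3 and -18.1 points, on 9 both-bound regions. As said above, the rule itself may set these signs. The recovery difference between NIN and LSH1 lists, 7.50 points, was examined after seeing the data: it was 7.85 with a replicate block over the 3 shared numbers (exact p = 0.50, smallest possible 0.25), 1.74 to 12.2 without 1 replicate, and 8.09 to 10.3 in the other alternatives, never past the threshold. The labels do not tie equal numbers to a shared culture. Unknown read depth limits all counts.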

Other observations

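Outside the 8 chromosomes, where 34 NIN and 13 LSH1 regions lay, 1 further pair of regions overlapped, on the unplaced sequence MtrunA17Chr0c01 at 1204390 to 1205157. It was in all 7 lists, with an overlap of 664 bp, and was peak number 3, 3 and 2 of NIN replicates 1 to 3 and number 5, 4, 2 and 2 of LSH1 replicates 1 to 4. It thus stood among the first 5 peaks of every list.

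Among both-bound regions on the chromosomes, 2 overlapped an snRNA gene (0.434%, against 0.0538% of other NIN and 0.142% of other LSH1 regions) and 1 a tRNA gene. These counts were noticed after the values were seen and were not tested. All 3 regions rested on 4 lists and stood late, with mean places of 61.7% to 73.6%. Over 7 measures, no LSH1 list stood apart from the other LSH1 lists; the NIN lists are too few for that check.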
